A study of Mus musculus with 7 samples.

Results

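The 10 genes described here belong to the tumour necrosis factor (TNF) receptor and NF-kB pathway and were looked for in lens epithelium of mice that lack SPARC, a secreted matrix protein. The members are the receptors Tnfrsf1a and Tnfrsf1b, the NF-kB subunits Nfkb1, Nfkb2, Rela and Relb, the inhibitor-of-NF-kB (IkB) family proteins Nfkbia, Nfkbiz and Bcl3, and the feedback enzyme Tnfaip3. The pathway was selected on measured values, since Tnfrsf1a and Bcl3 had been seen higher in the SPARC-null (KO) lenses, so the KO against wild-type (WT) values of those genes are given as a description with no test. A member's probe sets (the groups of short probes that an Affymetrix array sums into one signal) were taken by gene symbol. This gave 18 of 45037 probe sets, for 9 of the 10 members among 18193 named genes. Nfkb1 was not analysed here.

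The KO mice were SPARC-null on a C57Bl/6 background and the WT mice were wild-type littermates on that background, all 28 days old. Laser capture took the epithelium of 4 KO lenses (1L, 1R, 4L and 7L, named by animal and eye) and 3 WT lenses (2L, 5L and 6L), and each lens had its own array. Lenses 1L and 1R came from 1 animal and were averaged, which left 3 KO and 3 WT animals; KO animal 7 was male and the other 5 were female. The sources used here do not give the design of the null allele.

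TNF binds 2 receptors, of which Tnfrsf1a carries an intracellular death domain and is found on most cells, while Tnfrsf1b lacks that domain and is best known from immune and endothelial cells. Receptor binding activates a kinase complex that marks IkB proteins for destruction, and this frees dimers of Rel proteins to enter the nucleus and switch on target genes. Several of those targets, among them Nfkbia, Nfkb2, Relb, Bcl3 and Tnfaip3, feed back on the pathway itself.

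Promoter sequences from the RefSeq table of build GRCm38.p6 were matched for 7 of the 10 members; Nfkbiz, Relb and Nfkb1 were not matched. Each window of 300 bases, from 250 before to 50 after a start site, was searched on both strands for the 10-base kB consensus, the letters that NF-kB dimers bind. The consensus was found in 4 of the 7 members (Nfkb2, Nfkbia, Bcl3 and Tnfaip3), against 9.55% of 27025 genes with a promoter in the table. The windows of Tnfrsf1a, Tnfrsf1b and Rela did not hold these letters. The stretches below show the promoter of the receptor with the raised signal beside the kB matches of the other members, with matches in capitals, overlapping ones joined, and each strand read 5′ to 3′ in the direction of the gene.
Tnfrsf1a, chr6:125349623-125349722, plus strand, the 100 bases before the start: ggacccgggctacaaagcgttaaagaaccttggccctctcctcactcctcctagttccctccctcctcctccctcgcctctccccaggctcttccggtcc
Bcl3, chr7:19822735-19822764, minus strand, match from 2 bases past the start: gtcggcggcagGGGAAGTCCCgctgcccgg
Nfkbia, chr12:55492657-55492686, minus strand, match from 29 bases before the start: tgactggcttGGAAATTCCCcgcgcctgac
Nfkb2 (first of its listed start sites), chr19:46304692-46304736, plus strand, matches from 39, 38 and 11 bases before the start: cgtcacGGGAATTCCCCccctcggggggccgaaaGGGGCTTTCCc
Tnfaip3, chr10:19015516-19015545, minus strand, match from 125 bases before the start: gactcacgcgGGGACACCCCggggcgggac
Tnfaip3, chr10:19015411-19015440, minus strand, match from 12 bases before the start: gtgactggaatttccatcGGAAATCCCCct

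Each deposited value is a linear intensity, here called the signal. The arrays were scaled alike, with a mean of 500.003 or 500.004 once 2% of probe sets were trimmed from either end. The highest of 27 Bacillus control probe sets, which have no target in mouse RNA, lay at 24.3 to 45.5 depending on the array and served as the gauge of background. The brightest Sparc probe set averaged 5.44 on the log2 scale in KO animals against 15.38 in WT animals, as the genotype labels say. Another Sparc probe set averaged 5.35 (KO) and 14.71 (WT). The weakest one was not lower in KO (6.96 against 6.09), and its lenses overlapped. The ratio of 3′ to 5′ Gapdh signal, which is lower where RNA is more intact, was 3.75 in 2L and between 9.06 and 15.9 elsewhere, with means of 11.6 (KO) and 9.57 (WT; two-sided exact permutation p = 0.7, the design allowing none under 0.1). The lens epithelium markers Cryab, Gja1 and Pax6 were above the controls in all lenses. Foxe3, a defining one, was weak (11.5 to 84.1 for KO, 40.2 to 118 for WT), at or under the control in 2 KO lenses and 1 WT lens. However, 5 rod photoreceptor markers also gave a summed signal of 53143 to 71436 (KO) and 44868 to 79444 (WT), so rod transcripts were present in both groups. In such mixed samples more cells of a type and more RNA per cell cannot be told apart.

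Tnfrsf1a, the main TNF receptor of non-immune cells, had signals of 1773, 1795, 2509 and 2016 in the KO lenses 1L, 1R, 4L and 7L and of 1002, 1005 and 595 in the WT lenses 2L, 5L and 6L. All 4 KO lenses lay above all 3 WT lenses, 4L being the highest and 6L the lowest. On the log2 scale after normalisation the means were 11.04 ± 0.25 (KO) and 9.74 ± 0.38 (WT; SD, n = 3), a 2.46-fold difference. The eyes of KO animal 1 differed by only 0.0009 on the log2 scale. The log2 difference of 1.30 ran from 1.08 to 1.44 when each animal was left out in turn, with the lowest value reached without WT animal 6.

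Tnfrsf1b, the second TNF receptor, had signals of 66.8, 52.4, 70.5 and 223 in the KO lenses 1L, 1R, 4L and 7L and of 65.0, 66.8 and 75.8 in the WT lenses 2L, 5L and 6L. The groups overlapped, and 7L, the lens of the male KO animal, stood above the other 6. The means were 6.82 ± 0.92 (KO) and 6.47 ± 0.06 (WT; SD, n = 3; log2 difference 0.35, 95% interval -0.71 to 1.41; limma adjusted p = 0.99988). Without KO animal 7 the difference was -0.17. Its other probe set differed by -0.28 (SE 0.40) at signals of 20.8 to 73.4, where lens 1L fell under the control of its array.

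**Figure D1:**
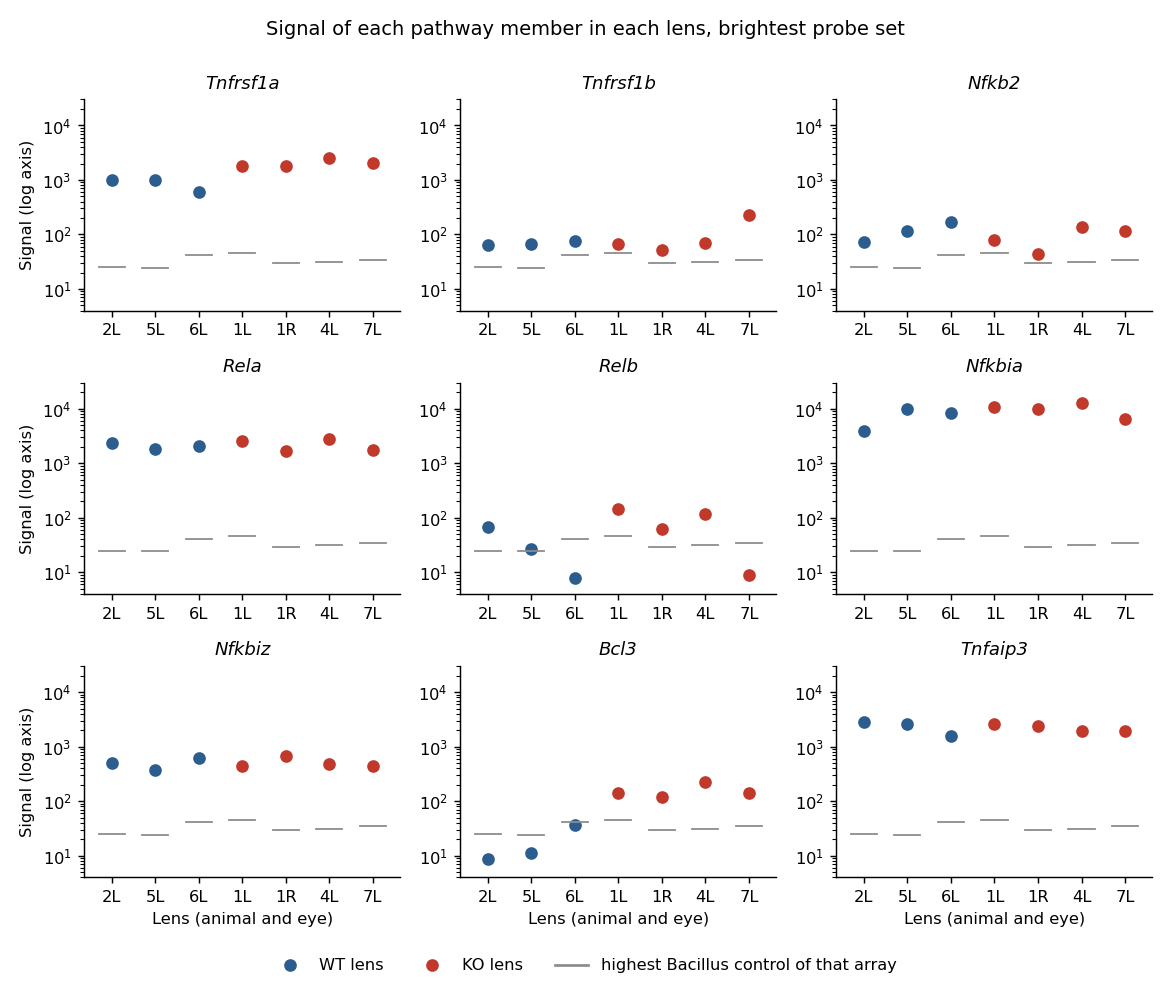
Signal (log axis) at the brightest probe set of each of the 9 measured members in the 3 WT lenses (blue) and 4 KO lenses (red); grey dashes mark the highest Bacillus control of each array. Tnfrsf1a and Bcl3 separate the groups, with the 3 WT lenses of Bcl3 under the grey dashes, while the other 7 members overlap.

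Bcl3, an atypical IkB protein that sits in the nucleus and works with the p50 and p52 subunits, had signals of 140, 121, 224 and 143 in the KO lenses 1L, 1R, 4L and 7L. In the WT lenses 2L, 5L and 6L they were 8.49, 10.9 and 36.9, each under the highest control of its own array (24.8, 24.3 and 41.3). All KO lenses thus lay above background and all WT lenses did not. The measured means were 7.44 ± 0.44 (KO) and 5.08 ± 0.56 (WT; SD, n = 3). With each WT lens set to the control of its array Bcl3 was at least 3.68-fold higher in KO, or at least 2.73-fold with the highest control of all arrays, a level added after the data had been seen. As measured, the log2 difference was 2.37, and it moved to 3.18 with a pseudocount of 1 and to 1.43 with one of 64. The groups were fully separate at 2 of the 9 brightest probe sets, both higher in KO and both part of the choice, where 2.56% of all probe sets lay wholly higher and 2.76% wholly lower.

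Nfkbia encodes IkB-alpha, the inhibitor that holds NF-kB in the cytoplasm and is made anew when NF-kB becomes active. Its brightest probe set had signals of 10980, 9792, 12682 and 6578 in the KO lenses 1L, 1R, 4L and 7L and of 3960, 9725 and 8339 in the WT lenses 2L, 5L and 6L. The KO lens 7L lay below 2 of the WT lenses, and 2L, the lens with the low 3′ to 5′ ratio, was the lowest. The log2 difference was 0.50 (95% interval -0.21 to 1.20; limma adjusted p = 0.99988), and it was 0.15 without WT animal 2. The other 4 Nfkbia probe sets differed by -0.16 to 0.31, and KO and WT lenses overlapped at each. The interval at the brightest one reaches a 2.30-fold higher level in KO.

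Nfkbiz, an inducible nuclear IkB protein, had signals of 447, 661, 485 and 442 in the KO lenses 1L, 1R, 4L and 7L and of 493, 378 and 627 in the WT lenses 2L, 5L and 6L. No group stood higher, and 1R and 6L were the highest. The log2 difference was -0.01 (95% interval -0.59 to 0.57; limma adjusted p = 0.99988), an interval of 0.664-fold to 1.49-fold. The remaining Nfkbiz probe sets differed by -0.01 and 0.24.

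Rela, the p65 subunit that carries the activation domain of the most common NF-kB dimer, had signals of 2541, 1684, 2797 and 1789 in the KO lenses 1L, 1R, 4L and 7L. The WT lenses 2L, 5L and 6L were at 2309, 1827 and 2112, inside the range of the KO lenses. The log2 difference was 0.08 (95% interval -0.41 to 0.58; limma adjusted p = 0.99988). The eyes of KO animal 1 differed by 0.63, more than the group means.

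Nfkb2, the precursor of the p52 subunit of the non-canonical branch, had signals of 79.5, 43.0, 135 and 117 in the KO lenses 1L, 1R, 4L and 7L and of 73.0, 115 and 171 in the WT lenses 2L, 5L and 6L. The groups overlapped and 1R was the lowest. The log2 difference was -0.29 at this probe set (95% interval -1.25 to 0.68) and 0.26 at the other (95% interval -0.57 to 1.10), with a limma adjusted p of 0.99988 at both. Without KO animal 1 the first of these was 0.04, so the probe sets give no common direction.

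Relb, the Rel protein that pairs with p52, had signals of 142, 62.4, 119 and 9.08 in the KO lenses 1L, 1R, 4L and 7L and of 66.4, 26.3 and 7.99 in the WT lenses 2L, 5L and 6L. Lenses 7L and 6L lay under the control of their arrays, so 1 lens of each group was not above background. The means were 6.15 ± 1.32 (KO) and 5.48 ± 0.95 (WT; SD, n = 3), the widest spread in KO among the members. The log2 difference of 0.67 (95% interval -0.86 to 2.20; limma adjusted p = 0.99988) was 1.42 without KO animal 7, 1.16 without WT animal 2, and 0.20 without KO animal 4. Without WT animal 6 it was 0.21, and without KO animal 1 it was 0.39.

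Tnfaip3 encodes A20, a ubiquitin-editing enzyme that shuts the TNF receptor complex down. Its signals were 2549, 2432, 1921 and 1942 in the KO lenses 1L, 1R, 4L and 7L and 2788, 2576 and 1592 in the WT lenses 2L, 5L and 6L. The KO lenses lay within the range of the WT lenses. The log2 difference was -0.09 (95% interval -0.64 to 0.47; limma adjusted p = 0.99988). The other probe set differed by 0.11 and was at or under the control in 1 KO and 2 WT lenses.

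**Figure D2:**
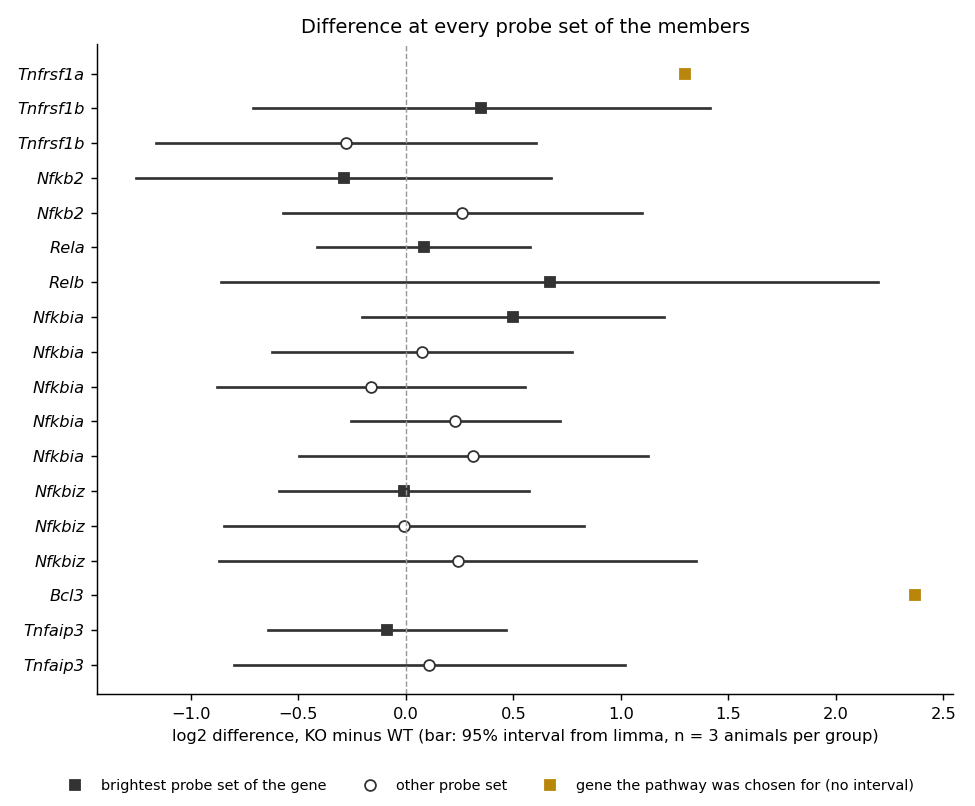
KO minus WT difference on the log2 scale at all 18 member probe sets, in the order of the members; squares are the brightest probe set of a gene, open circles the others, bars 95% intervals from limma with 3 animals per group. Tnfrsf1a (1.30) and Bcl3 (2.37), in gold and without an interval, stand to the right, and every interval drawn for the other 7 genes spans 0.

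Over the 7 members that did not lead to the choice, 4 had a higher and 3 a lower KO mean at the brightest probe set, with a median log2 difference of 0.08. Over all 45037 probe sets 48.4% had a higher KO mean and the median was -0.01. With Tnfrsf1a and Bcl3 the count was 6 of 9 and the median 0.35, which the choice of those genes raised. That median was 0.15 without WT animal 2, 0.20 without KO animal 4, 0.21 without WT animal 6 and 0.23 without KO animal 7. In limma 0 of the 16 other probe sets passed an adjusted p of 0.05, where 0.00666% of all probe sets did, and 0 had an unadjusted p under 0.05. The share of all probe sets at an unadjusted p under 0.05 was 2.24% higher and 1.81% lower in KO (1011 and 817 probe sets, against 801 and 1092 with median centring and 1271 and 574 on the deposited scale). The members with kB letters in a promoter window lay at 2.37 (Bcl3), 0.50 (Nfkbia), -0.09 (Tnfaip3) and -0.29 (Nfkb2), and those without at 1.30 (Tnfrsf1a), 0.35 (Tnfrsf1b) and 0.08 (Rela).

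The rest of the pathway was described by lists of ligands, receptors, adaptors, kinases, Rel and IkB proteins, negative regulators and target genes. Of 107 listed genes 100 were measured; 44 had a higher and 56 a lower KO mean, and the median log2 difference was -0.02. None passed an adjusted p of 0.05 in limma. At an unadjusted p under 0.05 there was 1 gene higher and 0 lower, where 2.24% of all probe sets were higher and 1.81% lower. In 1 gene the lenses had no overlap, where 2.56% of all probe sets lay wholly higher and 2.76% wholly lower. This was Nos2, which was lower in KO but at or under the control in all 7 lenses.

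Of 11 measured ligands, 2 were higher and 9 lower in KO, with a median of -0.12. Of these, 5 (Lta, Ltb, Tnfsf11, Fasl and Tnfsf14) were at or under the control in all 7 lenses. Tnf itself, the ligand of Tnfrsf1a, was at or under the control in all 4 KO lenses and in 1 of the 3 WT lenses, with signals of 6.59 to 25.8 (KO) and of 11.3, 25.2 and 73.3 (WT lenses 2L, 5L and 6L), too low for a fold. Of 14 other receptors of the TNF and interleukin-1 families, 7 were higher and 7 lower (median 0.08), with Tnfrsf13c at -0.49, Tnfrsf11a, the receptor RANK, at 0.57 and Tnfrsf10b, a death receptor, at 0.32.

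Of 15 receptor adaptors and ubiquitin ligases, 7 were higher and 8 lower (median -0.10). Irak1, a kinase of interleukin-1 and Toll-like receptor signalling, was the gene with an unadjusted p under 0.05. Its means were 11.25 ± 0.50 (KO) and 10.29 ± 0.66 (WT; SD, n = 3; log2 difference 0.96, SE 0.36; limma adjusted p = 0.99988), its lenses overlapped, and the difference was 0.35 with the mean of all its probe sets. Sharpin, part of the linear ubiquitin ligase, was at -0.41 and Myd88, the adaptor of Toll-like receptors, at 0.32. Of 10 kinases and kinase subunits, 5 were higher and 5 lower (median 0.0039), with Tbk1 at -0.29, Tab2 at 0.29 and Ikbke at 0.25.

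Of 6 other Rel and IkB proteins, 2 were higher and 4 lower (median -0.02). Nfkbie, which encodes IkB-epsilon, had means of 8.72 ± 0.79 (KO) and 7.95 ± 0.85 (WT; SD, n = 3; log2 difference 0.77, SE 0.50). That difference was 0.31 without KO animal 4, 0.46 without WT animal 2 and 1.25 without WT animal 6. Rel was at -0.48 and Nfkbib at -0.17. Of 11 other negative regulators, 6 were higher and 5 lower (median 0.02), with Pdlim2 at -0.47, Tax1bp1 at -0.31 and Tnip1, a partner of A20, at 0.25. The limma adjusted p was 0.99988 for each gene named here.

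Of 39 measured NF-kB target genes, which include adhesion molecules, chemokines and acute-phase genes, 17 were higher and 22 lower in KO. Their median log2 difference was -0.09, where that of all probe sets was -0.01. With weak probe sets removed, 29 of these genes were left and their median was 0.02. Beside Nfkbie, the smallest unadjusted p values belonged to Irf8, a transcription factor of myeloid cells (log2 difference 0.57, SE 0.30), and Vcam1, an adhesion molecule (0.80, SE 0.48), both with a limma adjusted p of 0.99988. Vcam1 was at 0.33 without KO animal 7, and Irf8 at 0.36 without WT animal 2. Ccl20, Il6, Nos2, Saa3 and Plau were at or under the control in all 7 lenses. The sign of 3 list medians turned with the scaling: with median centring the medians were -0.09 for the other negative regulators and -0.05 for the kinases, and on the deposited scale that of the other Rel and IkB proteins was 0.07.

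**Figure D3:**
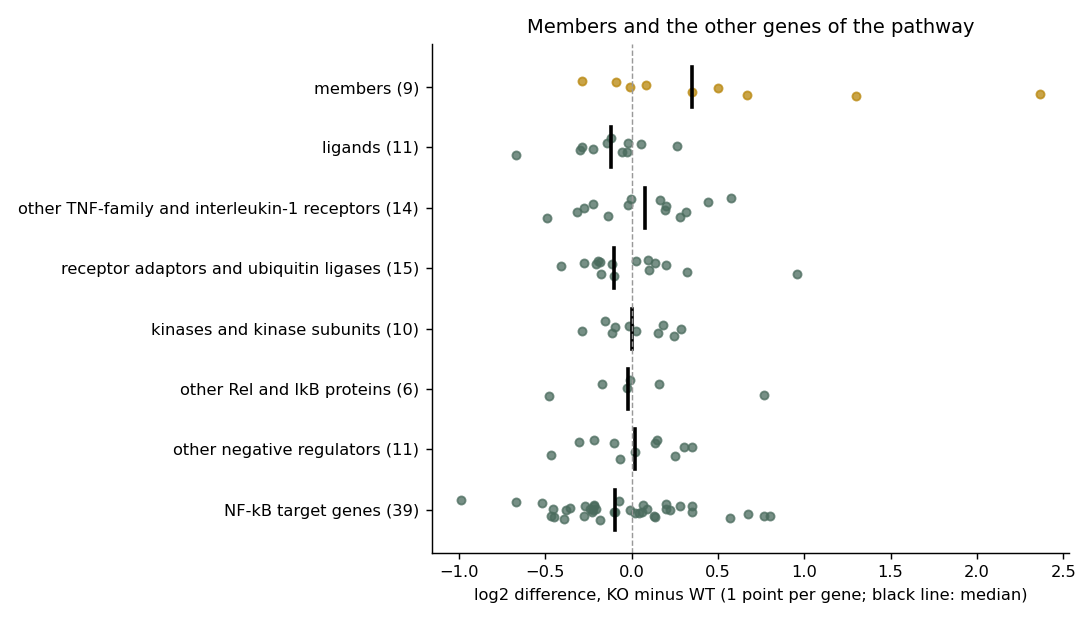
KO minus WT difference on the log2 scale at the brightest probe set of each gene, for the members (gold) and 7 lists of other pathway genes (green), 1 point per gene, with the number of genes in brackets and the median as a black line; a gene can stand in more than 1 list. The list medians lie between -0.12 and 0.08, and none of the genes in these lists lies above 0.96. Tnfrsf1a and Bcl3, which were chosen for being higher in KO, lie at 1.30 and 2.37.

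The KO lenses, higher in Tnfrsf1a and Bcl3 by the choice of those genes, also had more summed signal of macrophage and retinal glia markers. This restates the group difference and does not link the genes to a cell type. Among the WT lenses, 6L was the lowest for Tnfrsf1a and the macrophage sum. It was the highest for the glia sum and for Bcl3, which was under the control there. Of 14 macrophage and leukocyte markers, 12 were higher in KO (median log2 difference 0.39), where 48.4% of all probe sets had a higher KO mean. The 12 ran from Adgre1, Cd68 and Fcer1g at 0.03, 0.07 and 0.13 to C1qa at 1.61, while Itgam was at -0.08. The summed signal of all 14 was 2055 to 3451 (KO) and 1220 to 1885 (WT), with no overlap. Its highest value was in 4L, as for Tnfrsf1a and Bcl3, and Csf1r was its largest part in each lens. Aif1, a defining marker of macrophages, was at or under the control in all 7 lenses, while Csf1r ranged over 868 to 1445 (KO) and 361 to 886 (WT), with an overlap of 1 lens in each group. Of 5 markers of retinal glia, 4 were higher, and the sum of all 5 was 34146 to 38857 (KO) and 30927 to 33036 (WT), with no overlap. Most of that sum was Vim, the marker that was lower (log2 difference -0.19), at 19647 to 25986 over the 7 lenses. Gfap and Rlbp1 separated the groups, where 2.56% of all probe sets lay wholly higher in KO, while Glul, Aqp4 and Vim overlapped. The signals of Rlbp1 were nearly equal in KO lens 1R (794) and WT lens 2L (793). Gfap, which glia raise on injury, ranged over 3858 to 7081 (KO) and 1095 to 2432 (WT). All 6 blood and endothelial markers were higher (sums of 677 to 988 in KO and 385 to 686 in WT, overlapping), with Pecam1 at or under the control throughout. Of these, Alas2 alone was higher in every KO than in every WT lens (log2 difference 1.42), at or under the control in 1 KO and 3 WT lenses. Slc4a1 differed by 1.48 with overlap, at or under the control in 2 KO and 3 WT lenses. All 5 pigment cell markers were higher (median log2 difference 0.78; sums of 14152 to 42466 for KO, 7369 to 23331 for WT, overlapping). All 4 surface epithelium markers were lower (median -1.48), and their sums overlapped (953 to 12872 for KO, 6060 to 15084 for WT), with 7L the lowest. Upk1b, one of these, was lower in every KO than in every WT lens (log2 difference -1.37, SE 0.28; limma adjusted p = 0.91837). All 4 skeletal muscle markers were lower too (median -0.40; sums of 6359 to 25864 for KO, 5878 to 40216 for WT, overlapping). Of 8 lens epithelium markers, 3 were higher and 5 lower (median -0.05), from -1.02 for the weak Foxe3 to 0.05 for Cryab. The part of any of these cells in the Tnfrsf1a and Bcl3 signals was not tested.

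**Figure D4:**
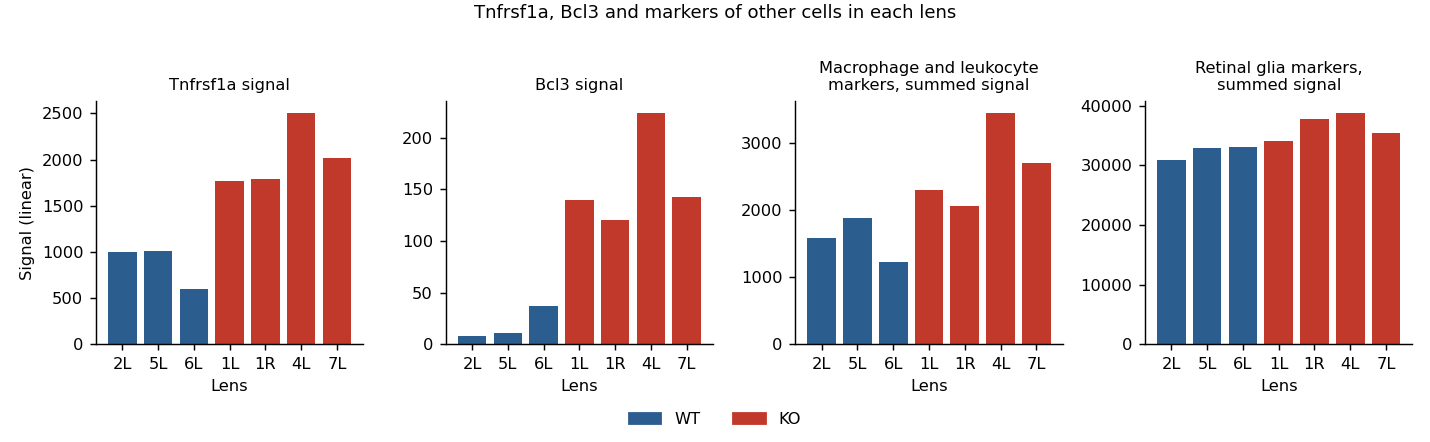
Signal of Tnfrsf1a and Bcl3 and summed signal of 14 macrophage and leukocyte markers and 5 retinal glia markers, on linear axes, in the 3 WT lenses (blue) and 4 KO lenses (red). In all 4 panels each KO lens lies above each WT lens, and lens 4L is the highest. Tnfrsf1a and Bcl3 were chosen for being higher in KO, and most of the retinal glia sum is Vim, which was itself lower in KO.

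Among 11707 genes with a mean above the median of all probe sets, those whose log2 values over the 7 lenses most resembled Tnfrsf1a by Pearson correlation were Scrn1 (r = 0.97), Lin7a (0.97), Nalcn (0.97), Adam23 (0.97) and Samhd1 (0.96). For Bcl3 they were Phyhipl (0.97), Socs3 (0.97), Pcdh9 (0.96), Serping1 (0.96) and Acat1 (0.96). All 10 had a higher KO than WT mean, by 0.57 (Scrn1) to 2.88 (Socs3, a feedback inhibitor of cytokine signalling). That direction was all but fixed by so high a correlation with genes chosen for being higher in KO. Tnfrsf1a and Bcl3 correlated with each other at 0.84. The 7 points share the group difference and an animal in 1L and 1R, and these values are descriptions.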

How the data were processed

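Each array gave 1 linear intensity per probe set, as deposited by the authors; the sources used here do not name the summary software. Of 45101 rows, 64 control probe sets were left out and the rest kept with no filter. Signals were turned into log2(signal + 16), so differences of weak probe sets are understated, and quantile normalized; lenses 1L and 1R were averaged. The groups were then fitted with limma 3.58.1 (R 4.3.3; intensity trend, two-sided) and Benjamini-Hochberg adjustment over all 45037 probe sets at 0.05; the code was tested on simulated data. Separate mice, KO and wild-type littermates, are the replicates. The number of arrays limits the precision. Repeated amplification favours probe sets near the 3′ end of a transcript.

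Names came from the platform annotation, in which 34945 probe sets had 1 symbol; 34741 were found in the GRCm38.p6 gene table and 0 symbols changed. The probe set with the highest mean stood for a gene. All members are named, with the 3 genes of smallest p in each pathway list and the 5 genes most like Tnfrsf1a and Bcl3. Some cell type markers were picked out with their values known, and for a few of them a difference is given. Other genes are named for their level only. Members and lists were chosen with earlier results of these data known.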

Additional observations from a re-analysis of the deposited data

How the results depend on the processing

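In limma 0 of the 16 probe sets of members other than Tnfrsf1a and Bcl3 (7 genes where probe sets were averaged) passed under all 18 alternatives that were run. These treated lenses as independent, took only 1 lens of KO animal 1, centred on medians, kept the deposited scale, removed weak probe sets, dropped the trend, weighted arrays, used pseudocounts of 1 or 64 or a threshold of 0.1, averaged a gene's probe sets, or left out each animal. The animal as a random block was not run, since 1 pair of lenses gave no correlation. No paired analysis was possible because the groups share no replicate numbers. Tnfrsf1a and Bcl3 kept their direction throughout, which was all but fixed by their choice as genes higher in KO, with no overlap of lenses. With those genes counted, 5 to 8 of the 9 members had a higher KO mean. The same share over all probe sets ran from 41.5% (median centring) to 53.5% (deposited scale). The median over the members moved from 0.35 to 0.12 with array weights, 0.0821 with averaged probe sets and 0.19 with independent lenses.

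Some differences changed sign, none of them past the threshold. Nfkbiz was at 0.0254 with independent lenses, 0.0884 with only the right lens of KO animal 1, 0.0996 with array weights and 0.0744 with averaged probe sets. Rela was at -0.0224 with that right lens and -0.0219 with median centring. Tnfaip3 was at 0.0182 with array weights and 0.0105 with averaged probe sets, which also gave Tnfsf10 0.0655 and Tax1bp1 0.041. Leaving out 1 animal gave ranges of -0.17 to 0.68 for Tnfrsf1b, -0.56 to 0.0377 for Nfkb2, -0.0948 to 0.23 for Rela, -0.16 to 0.19 for Nfkbiz, -0.33 to 0.0623 for Tnfaip3 and -0.0249 to 0.63 for Tnfrsf10b. The cause was not tested. Leaving out 1 animal moved 18 of the 20 named pathway genes by over 1.5 times and turned the median of 6 of the 7 pathway lists, all but the ligands. For Tnf, near background, the difference was -1.10 with a pseudocount of 1 and -0.33 with 64.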
